A study of Bos taurus with 33 samples.

Results

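Inhibin, activin, follistatin and anti-Müllerian hormone (AMH) transcripts were followed in the oocytes and cumulus cells (CC) of preovulatory bovine follicles, with emphasis on the CC, the somatic cells that enclose the oocyte. The 7 genes were chosen by symbol: INHA, INHBA, INHBB, FST, FSTL3, AMH and AMHR2. All 7 were listed among the 16244 genes of the CC table and the 16279 genes of the oocyte table. Each library came from 4 oocytes, or from the CC of 4 complexes, of suckled postpartum Hereford-Angus cows whose follicles were synchronized with GnRH on day -9 and prostaglandin F2 alpha on day -2. Small follicles (up to 11.7 mm) and large follicles (at least 12.7 mm) came from cows without estrus that received a further GnRH injection on day 0. Spontaneous follicles (11.7 to 14.0 mm) came from cows that showed estrus, had their own gonadotropin surge and did not receive that injection. Follicle size, estrus and the source of the surge therefore cannot be told apart in comparisons with the spontaneous classification. The labels give about 20 h in one field and about 23 h in another for the time from injection or estrus to collection. There were 6 small, 6 large and 5 spontaneous CC pools, and 6, 6 and 4 oocyte pools.

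Inhibins are secreted glycoproteins of granulosa cells that lower the release of follicle-stimulating hormone (FSH) from the pituitary. The alpha subunit, encoded by INHA, pairs with a beta subunit, encoded by INHBA or INHBB, to form inhibin, whereas beta subunits paired with each other form activins. Activins signal through receptor serine kinases and the SMAD2 and SMAD3 proteins, and inhibin opposes them by holding their type II receptors together with betaglycan (TGFBR3). Follistatin (FST) and follistatin-like 3 (FSTL3) bind activins outside the cell. AMH, made by granulosa cells of growing follicles, acts through its own receptor, AMHR2.

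Reads assigned to genes numbered 1911600 to 5772431 per CC pool and 7664375 to 17934916 per oocyte pool. Values are reads per 1000000 assigned to genes (CPM), and 3 reads, the upper limit that a count of 0 allows, were worth 0.52 to 1.57 CPM in CC and 0.167 to 0.391 CPM in oocytes. Reads of amplified cDNA are not independent molecules, so that limit allows for counting error and nothing more. Nothing in the labels tells which cows entered which pool, so p-values measure the spread between pools. Of 18 cumulus and granulosa markers 14 passed the expression filter in CC, whereas the granulosa cell transcription factor FOXL2 was near 0 there (median 0.363 CPM) and the aromatase gene CYP19A1 was low (median 5.83 CPM). Oocyte markers summed to 1.57 to 13.7 CPM in CC against 11129 to 15554 CPM in oocytes. Theca and stroma markers summed to 349 to 1493 CPM in 16 CC pools and to 3450 CPM in spontaneous CC replicate 2. The mitochondrially encoded share of reads was 12.6 to 44.0% in small, 14.4 to 28.0% in large and 14.3 to 22.1% in spontaneous CC pools, and its highest value belonged to small CC replicate 3, which also had the fewest reads.

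INHA, INHBA, INHBB, FST, FSTL3 and AMH passed the filter (5 CPM or more in 5 or more CC pools), and AMHR2 did not. Among the 18 tests of these 6 genes over the 3 comparisons of CC, only the difference in INHA between large and spontaneous follicles met the threshold of a nominal p of 0.01 or less (limma on log2(CPM + 1)), and it did not survive adjustment over all transcripts. Log2 fold changes are differences between mean log2(CPM + 1), and are positive where the second classification of a comparison is higher. From small to large follicles 0 of 6 genes met the threshold, where 0.813% of all retained transcripts did. From small to spontaneous follicles it was 0 of 6 (background 2.38%), and from large to spontaneous follicles 1 of 6 (background 1.66%). At an unadjusted p under 0.05 there were 2 of 6 in each comparison, where the backgrounds were 4%, 8.55% and 7.07%. At an adjusted p under 0.05 there were 0 of 6 in each, against 0%, 0.0309% and 0.0103% of all retained transcripts. For 0 of 6 genes were the CPM of any pair of classifications free of overlap, which held for 0.247%, 1.16% and 0.865% of all retained transcripts.

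**Figure D1:**
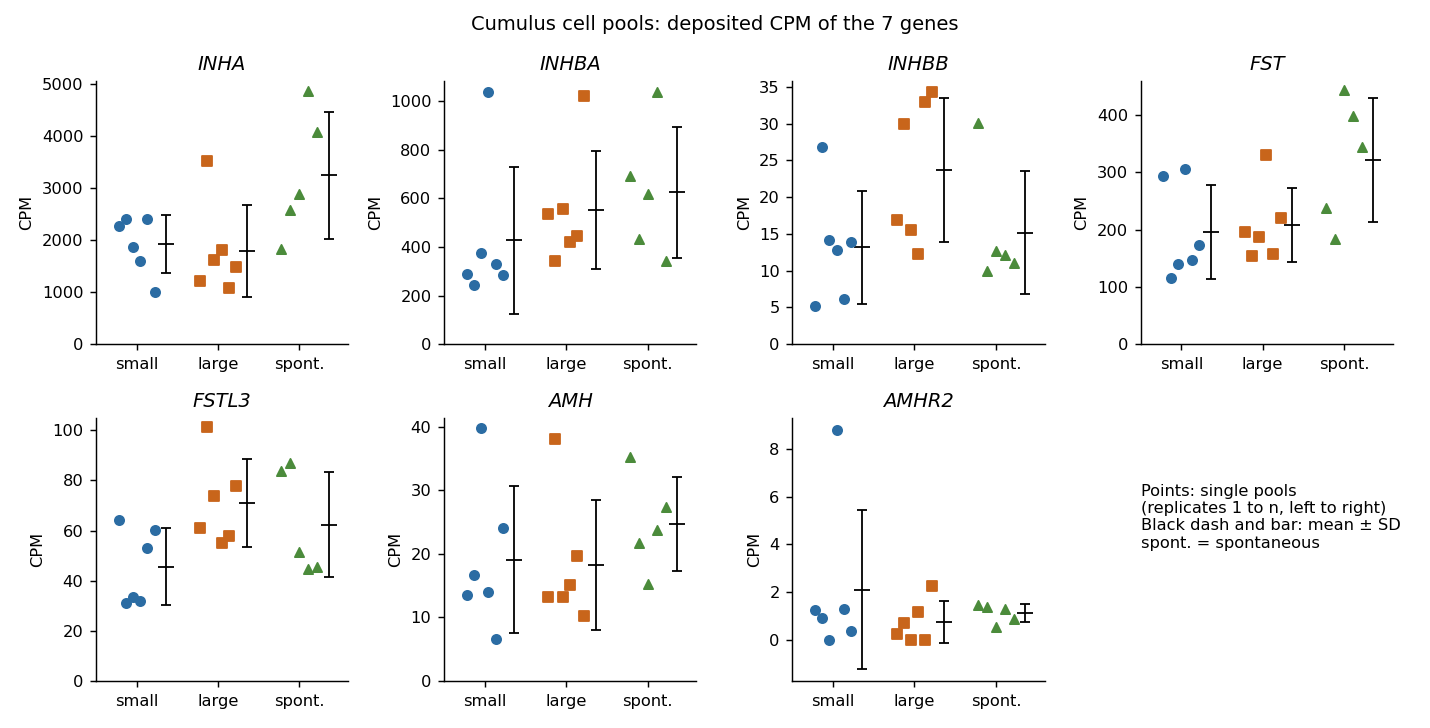
CPM of each gene (linear vertical axes) in the small, large and spontaneous CC pools. Each point is a pool, in replicate order from left to right, and the black dash and bar are the mean and SD. INHA reached 4855 CPM in spontaneous, 3512 CPM in large and 2397 CPM in small pools, and the classifications overlapped for every gene.

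The inhibin alpha subunit transcript had its highest mean in CC of spontaneous follicles. INHA (ENSBTAG00000009972) ranged from 999 to 2397 CPM in small pools, with a median of 2068 CPM. In large pools it ranged from 1083 to 3512 CPM, with a median of 1554 CPM. The 5 spontaneous pools held 1823, 2580, 2876, 4855 and 4083 CPM in replicate order. Large replicate 2 lay above 3 of the spontaneous pools, and the other large pools lay at or below 1805 CPM, under every spontaneous pool. Mean CPM were 1921 ± 553 (SD, n = 6), 1786 ± 886 (n = 6) and 3243 ± 1214 (n = 5). From large to spontaneous follicles INHA increased by 0.89 on the log2 scale (SE 0.289, limma p = 0.00656, adjusted p = 0.567, exact permutation p = 0.0476 for mean CPM). From small to spontaneous follicles the difference was 0.73 (SE 0.273, limma p = 0.0155, adjusted p = 0.455, exact permutation p = 0.0281), short of the threshold. Small and large pools did not differ beyond their spread (-0.16, 95% interval -0.72 to 0.40).

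The INHA difference between large and spontaneous follicles was positive in every alternative, but its call depended on them. It lost the threshold with median-of-ratios scaling (0.79), with CPM recomputed without mitochondrially encoded genes (0.83), without the filter (0.89), with edgeR's quasi-likelihood test (0.74) and with DESeq2 (0.74). It also lost it without large replicate 1 (0.80), 3 (0.89), 5 (0.77) or 6 (0.86), or without spontaneous replicate 3 (0.92), 4 (0.73) or 5 (0.79). The comparison of small with spontaneous follicles met the threshold without spontaneous replicate 1 (0.92). CPM are relative to all reads of a pool, and the median log2 fold change of all 9712 retained transcripts was 0.05 for small and large, 0.16 for small and spontaneous and 0.11 for large and spontaneous follicles. With median-of-ratios scaling these medians were -0.01, 0.01 and 0.01. Fewer cells making a transcript and less transcript per cell cannot be told apart in pooled RNA.

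**Figure D2:**
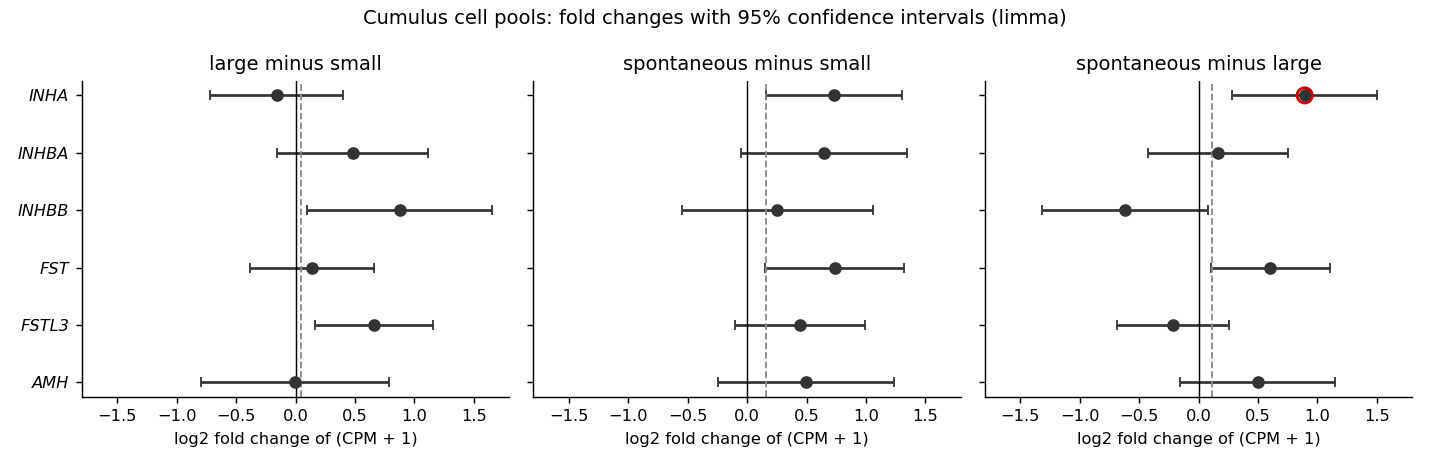
Log2 fold changes of (CPM + 1) between classifications in CC for the 6 retained genes (points) with 95% confidence intervals from limma (bars). Dashed lines are the medians of all retained transcripts (0.05, 0.16 and 0.11), and the red ring marks INHA from large to spontaneous follicles (0.89), which met the threshold but lost it in the alternatives named in the text.

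The activin beta subunit transcripts differed less clearly. INHBA (ENSBTAG00000002912), the beta A subunit of inhibin A and activin A, ranged from 244 to 1037 CPM in small pools (median 310) and from 341 to 1022 CPM in large pools (median 490). The spontaneous pools held 694, 433, 617, 1037 and 340 CPM. In small follicles 5 pools lay at or below 377 CPM and replicate 4 alone was at 1037 CPM, as high as the highest spontaneous pool. Mean CPM were 427 ± 302, 553 ± 243 and 624 ± 270. The log2 fold change was 0.48 from small to large (limma p = 0.129, adjusted p = 0.999, exact permutation p = 0.442) and 0.64 from small to spontaneous follicles (limma p = 0.0686, adjusted p = 0.61, exact permutation p = 0.301). Without small replicate 4 both met the threshold, at 0.78 and 0.94. Large and spontaneous pools did not differ beyond their spread (0.16, 95% interval -0.43 to 0.75).

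INHBB (ENSBTAG00000032017), the beta B subunit of inhibin B and activin B, was at low CPM throughout. It ranged from 5.21 to 26.8 CPM in small pools (median 13.3) and from 12.3 to 34.3 CPM in large pools (median 23.4). Spontaneous pools held 30.1, 9.95, 12.7, 12.2 and 11.02 CPM, so that 4 of the 5 lay close together and replicate 1 was apart. Mean CPM were 13.2 ± 7.73, 23.7 ± 9.79 and 15.2 ± 8.40. The log2 fold change from small to large follicles was 0.87 (SE 0.372, limma p = 0.0293, adjusted p = 0.999, exact permutation p = 0.0671). The threshold was met without small replicate 2 (1.10), and in no other fit that left out a pool. From large to spontaneous follicles it was -0.62 (limma p = 0.0786, adjusted p = 0.74, exact permutation p = 0.147). In the order of means the highest classification was large follicles for INHBB and FSTL3, and spontaneous follicles for INHA, INHBA, FST and AMH. Neighbours in this order did not differ at the threshold for any of these genes.

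Ratios between 2 genes of the same pool were formed from CPM + 1, so those of INHBB, at low CPM, still depend in part on the added 1 and on the scaling of the pool. Reads were not divided by transcript length, so a ratio is compared among classifications only. On this CPM + 1 scale INHBA was 10.2 to 64.8% of INHA in small pools, 9.74 to 68.5% in large pools and 8.36 to 38.1% in spontaneous pools. The mean log2 ratio was -2.31 ± 0.976, -1.67 ± 0.972 and -2.40 ± 0.791. INHBB + 1 was 1.33 to 11.3%, 2.98 to 9.03% and 1.27 to 4.47% of INHBA + 1 in small, large and spontaneous pools. FST was 29.5 to 101.2%, 21.7 to 78.7% and 34.2 to 101.2% of INHBA on the same scale. Of 9 exact permutation tests of these log2 ratios, two-sided, 0 had an adjusted p under 0.05 and 0 an unadjusted p under it. The smallest p was 0.126, for INHBB to INHBA from large to spontaneous follicles (difference -0.78, adjusted p = 0.592). The difference in INHBA to INHA from large to spontaneous follicles was -0.73 (exact permutation p = 0.206) and became -1.07 without large replicate 2 (exact permutation p = 0.0397, unadjusted).

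**Figure D3:**
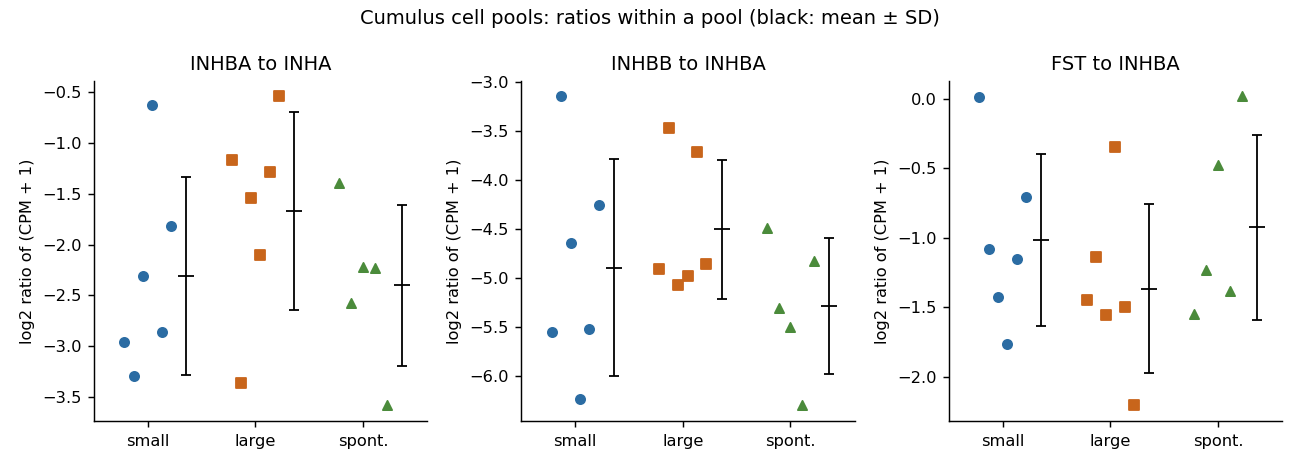
Log2 ratios of (CPM + 1) between 2 genes of the same CC pool, by classification. Points are pools and the black dash and bar are the mean and SD. The classifications overlap in all 3 ratios, with INHBA to INHA at means of -2.31, -1.67 and -2.40 in small, large and spontaneous pools.

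Follistatin transcripts had their highest mean in CC of spontaneous follicles. FST (ENSBTAG00000003329) ranged from 115 to 305 CPM in small pools (median 161) and from 154 to 329 CPM in large pools (median 192). The spontaneous pools held 237, 184, 443, 398 and 345 CPM. Replicates 3 to 5 of the spontaneous classification lay above every small and large pool, whereas replicates 1 and 2 lay among them. Mean CPM were 196 ± 82.6, 207 ± 64.7 and 321 ± 108. The log2 fold change to spontaneous follicles was 0.74 from small (SE 0.278, limma p = 0.0162, adjusted p = 0.464, exact permutation p = 0.0649) and 0.60 from large follicles (SE 0.236, limma p = 0.0202, adjusted p = 0.624, exact permutation p = 0.0584). Neither met the threshold. Without spontaneous replicate 2, the pool with the highest theca and stroma markers, both did, at 0.92 and 0.79. So did the comparison with small follicles without small replicate 1 (0.88) or 4 (0.89), and that with large follicles without large replicate 4 (0.75). Small and large pools did not differ beyond their spread (0.13, 95% interval -0.39 to 0.66).

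FSTL3 (ENSBTAG00000003018), the related activin-binding protein, ranged from 31.1 to 64.1 CPM in small pools (median 43.3) and from 54.8 to 101.4 CPM in large pools (median 67.3). The spontaneous pools held 83.6, 86.8, 51.4, 44.5 and 45.4 CPM. The lowest 3 small pools, at 31.1 to 33.5 CPM, lay under every large and spontaneous pool. Mean CPM were 45.6 ± 15.2, 71.02 ± 17.4 and 62.3 ± 21.1. From small to large follicles the log2 fold change was 0.66 (SE 0.238, limma p = 0.0119, adjusted p = 0.999, exact permutation p = 0.0281), just short of the threshold. Without small replicate 1 (0.77) or 6 (0.75) it was met. Beside it, summed cumulus and granulosa markers were 12470 to 25010 CPM in small and 20266 to 33647 CPM in large pools. This sum rested largely on the versican gene VCAN, with a median of 15808 CPM over the CC pools. The study reported VCAN itself as higher in CC of large than of small follicles. The sum therefore cannot be read as cumulus and granulosa cell content alone, and its part in the FSTL3 difference was not tested. The difference was 0.44 from small to spontaneous follicles (limma p = 0.104, exact permutation p = 0.16) and -0.22 between large and spontaneous follicles (exact permutation p = 0.461).

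AMH (ENSBTAG00000014955) ranged from 6.63 to 39.8 CPM in small pools (median 15.3) and from 10.2 to 38.1 CPM in large pools (median 14.1). Spontaneous pools held 35.3, 21.7, 15.2, 23.8 and 27.3 CPM, within the range of the small pools. Mean CPM were 19.1 ± 11.6, 18.2 ± 10.2 and 24.7 ± 7.40, and the 3 log2 fold changes of -0.01, 0.49 and 0.50 had limma p-values of 0.988, 0.177 and 0.125. The 95% interval from small to large follicles, -0.79 to 0.78, leaves room for changes of that size either way. AMHR2 (ENSBTAG00000018524) was not tested: it was at 0 in 3 of 17 CC pools and ranged up to 8.81 CPM, which was 29 reads in small replicate 4. In the other 16 CC pools it rested on 0 to 10 reads.

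Over the 17 CC pools, log2(CPM + 1) of the 6 genes was weakly related. Of 15 pairs 0 had an adjusted permutation p under 0.05. The pair with the smallest p was INHBA and FST (r = 0.51, permutation p = 0.0389, adjusted p = 0.583, rho = 0.54, permutation p = 0.0294, adjusted p = 0.44). Its r fell to 0.34 without the 2 pools farthest from the median of INHBA, and r was 0.43 over deviations from the classification means (permutation p = 0.124). INHA and INHBA, whose products pair in inhibin A, had an r of -0.00196 (permutation p = 0.994, adjusted p = 0.994, rho = -0.12, permutation p = 0.656, adjusted p = 0.853) and -0.22 without the 2 farthest pools.

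The retained transcripts with a symbol whose pattern over the 17 CC pools was most like each gene, by Pearson's r of log2(CPM + 1), were taken as a description. For INHA they were MCC (r = 0.88), RPN1 (0.85) and MAPK3 (0.85), and for FST they were HABP4 (0.84), C9orf84 (0.83) and ITGB5 (0.82). Among transcripts with a symbol INHBA was nearest to FAM98C (0.79), PATZ1 (0.78) and TMEM185B (0.78), and INHBB to IGSF11 (0.78), NOC2L (0.74) and GPR50 (0.74). FSTL3 was nearest to SRPX2 (0.80), KIAA2013 (0.79) and NCAM1 (0.79), and AMH to CMTM8 (0.80), NINJ1 (0.76) and TXN (0.75). For INHBA and AMH a transcript without a symbol, not printed, ranked among or above those named, and the transcripts of a pool share its depth and scaling. Each r listed is among the highest of 9712 retained transcripts. The r that such a choice gives without any relation was not computed.

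Other genes of the pathway were taken from a list of 39, of which 25 were retained in CC. From small to large follicles 20 of the 25 had a positive and 5 a negative log2 fold change, with a median of 0.21, and 0 met the threshold. From small to spontaneous follicles 22 were positive (median 0.32) and 2 met the threshold, both higher in spontaneous pools. From large to spontaneous follicles 17 were positive (median 0.10) and 1 met it. The medians of all retained transcripts were 0.05, 0.16 and 0.11, and 56.03, 71.9 and 65.6% of them were positive. Of all retained transcripts 0.813%, 2.38% and 1.66% met the threshold. From small to spontaneous follicles 231 transcripts met it, of which 221 were higher in spontaneous pools.

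Among receptors and co-receptors (9 of 11 retained in CC), BAMBI, a pseudoreceptor that lacks the kinase domain and dampens signaling, met the threshold from small to spontaneous follicles. Its CPM were 0 to 7.39 in small, 0 to 15.1 in large and 3.51 to 21.2 in spontaneous pools. The means were 2.61 ± 2.97 and 12.6 ± 7.69 CPM in small and spontaneous pools, with a log2 fold change of 2.09 (SE 0.562, limma p = 0.00165, adjusted p = 0.295, exact permutation p = 0.0152), and it lost the threshold with edgeR's quasi-likelihood test (2.12). Betaglycan TGFBR3 averaged 129 ± 40.0, 138 ± 25.3 and 169 ± 41.0 CPM. The type I receptors BMPR1A and BMPR1B, through which AMH can signal, averaged 65.5, 78.8 and 82.7 CPM and 63.3, 57.0 and 89.3 CPM. BMPR1B met the threshold from large to spontaneous follicles only without large replicate 2 (1.09), and from small to spontaneous only without small replicate 4 (0.90). The activin type II receptor ACVR2A averaged 52.0, 58.3 and 71.8 CPM and met the threshold from small to spontaneous follicles only without small replicate 6 (0.66).

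Of the follistatin-like genes FSTL1 was retained in CC. Despite its name it is a secreted glycoprotein of the SPARC family and, unlike FST, is not known chiefly as an activin-binding protein. It ranged from 199 to 428 CPM in small, 271 to 411 CPM in large and 383 to 617 CPM in spontaneous pools. Mean CPM were 282 ± 81.6, 331 ± 55.97 and 499 ± 97.1. FSTL1 was higher in spontaneous than in small pools (0.84, SE 0.200, limma p = 0.000543, adjusted p = 0.237, exact permutation p = 0.00649) and than in large pools (0.59, SE 0.166, limma p = 0.00253, adjusted p = 0.547, exact permutation p = 0.00649). The latter lost it with median-of-ratios scaling (0.49), with edgeR's quasi-likelihood test (0.48) and without spontaneous replicate 5 (0.50).

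Of 8 SMADs, the intracellular carriers of these signals, 6 were retained in CC and 0 met the threshold in any comparison. SMAD2 and SMAD3 carry activin signals, SMAD1 and SMAD5 those of AMH, and SMAD4 is shared. Mean CPM over the small, large and spontaneous pools were 138, 136 and 167 for SMAD2, 162, 187 and 185 for SMAD4, 169, 192 and 207 for SMAD5, and 33.1, 28.4 and 27.0 for SMAD1. Of 4 proprotein convertases, which cleave the precursors of these ligands, 3 were retained and 0 met the threshold, with FURIN at 28.7, 30.2 and 31.7 CPM. Of 11 regulators of inhibin and AMH transcription 6 were retained. GATA4, a transcription factor of granulosa cells, averaged 143 ± 35.2, 205 ± 36.1 and 159 ± 32.3 CPM. From small to large follicles its log2 fold change of 0.54 (limma p = 0.012, adjusted p = 0.999, exact permutation p = 0.0195) was short of the threshold, and it met it with median-of-ratios scaling (0.48), with DESeq2 (0.48) and without small replicate 6 (0.63), large replicate 2 (0.59) or large replicate 3 (0.60). NR5A2, GATA6 and CREB1 did not meet the threshold in any comparison, at means of 266, 263 and 258 CPM for NR5A2.

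In oocytes the same transcripts were scarce. The oocyte and CC tables were scaled separately, so levels are set side by side without a test. The median over the oocyte pools, as a percentage of that over the CC pools, was 1.65% for INHA, 5.57% for INHBA, 8.98% for INHBB, 3.26% for FST, 4.15% for FSTL3 and 7.89% for AMH. For 14 cumulus and granulosa markers this percentage had a median of 5.29%, from 0% for the FSH receptor gene FSHR to 369% for HAS2. INHA, INHBA, FST and FSTL3 passed the filter (5 CPM or more in 4 or more pools). INHBB reached at most 10.3 CPM, AMH at most 11.2 CPM, and AMHR2 was at 0 in 15 of 16 oocyte pools.

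**Figure D4:**
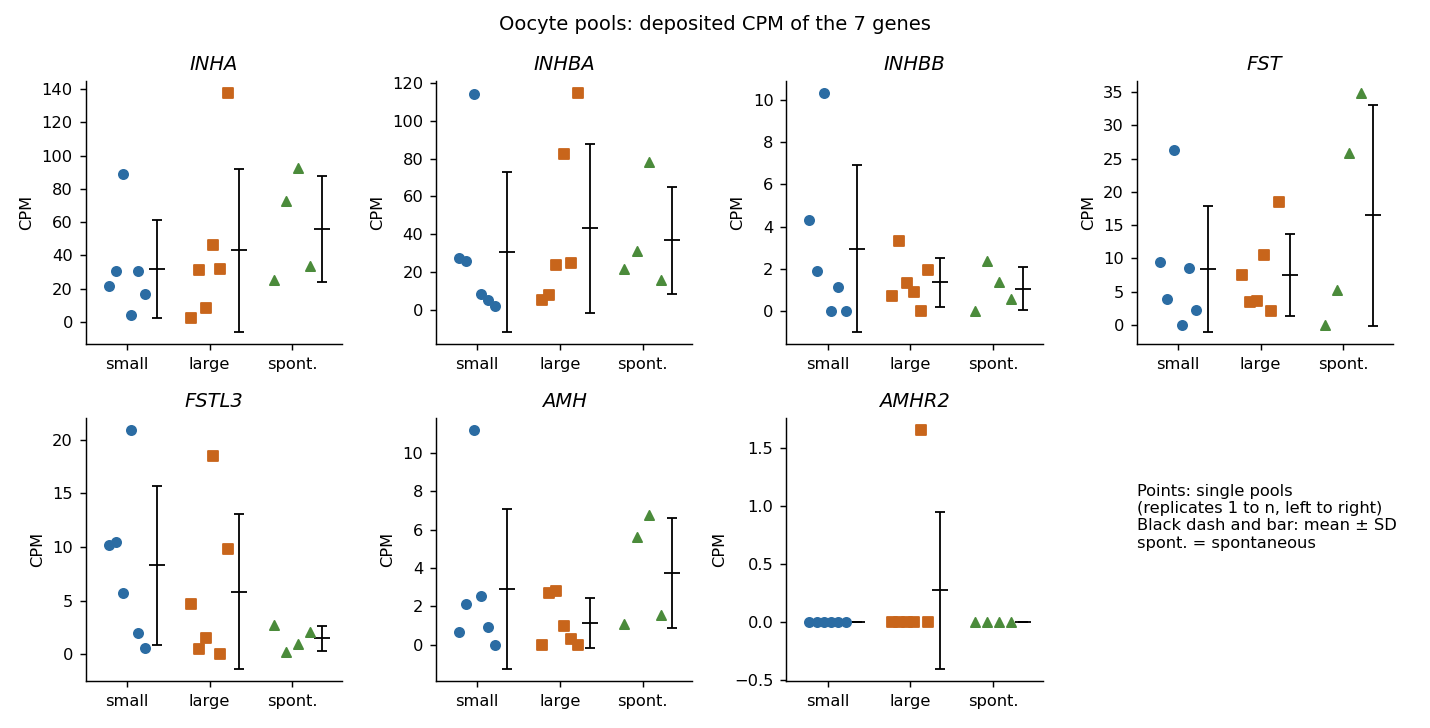
CPM of each gene (linear vertical axes) in the small, large and spontaneous oocyte pools, with the mean and SD in black. INHA lay between 2.45 and 137.5 CPM, INHBB and AMH did not exceed 11.2 CPM, and AMHR2 had reads in 1 pool only.

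None of the 4 retained genes met the threshold between oocyte classifications by limma, where the backgrounds were 0.655% (small and large), 0.774% (small and spontaneous) and 0.943% (large and spontaneous). With all pools included there were also 0 of 4 at an unadjusted p under 0.05 (backgrounds 4.11%, 4.51% and 4.87%). Likewise 0 of 4 had classifications free of overlap (backgrounds 0.258%, 0.903% and 0.913%). edgeR's quasi-likelihood test and DESeq2 also gave 0. In the comparisons with small pools a transcript had to pass with and without small replicate 3. INHA ranged from 4.33 to 88.7 CPM in small pools (median 26.01) and from 2.45 to 137.5 CPM in large pools (median 31.6), and the spontaneous pools held 25.4, 72.7, 92.5 and 33.7 CPM. Its log2 fold change from small to spontaneous follicles was 1.06 (SE 0.555, limma p = 0.0657, adjusted p = 0.987, exact permutation p = 0.267), and 1.44 without small replicate 3, where it was also short of the threshold. INHBA ranged from 1.81 to 114 CPM in small pools (median 17.1) and from 4.90 to 115 CPM in large pools (median 24.1), and spontaneous pools held 21.5, 31.3, 78.4 and 15.7 CPM. The highest small and large values of both genes belonged to small replicate 3 and large replicate 6.

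FST ranged from 0 to 26.4 CPM in small pools (median 6.28) and from 2.12 to 18.4 CPM in large pools (median 5.54), and the spontaneous pools held 0, 5.26, 25.8 and 34.8 CPM. FSTL3 ranged from 0.603 to 20.9 CPM in small pools (median 7.94) and from 0 to 18.5 CPM in large pools (median 3.08). The spontaneous pools held 2.72, 0.202, 0.91 and 2.06 CPM of FSTL3, of which replicate 2 lay below every small pool and the others within their range. Its log2 fold change from small to spontaneous follicles was -1.56 (SE 0.803, limma p = 0.0616, adjusted p = 0.987, exact permutation p = 0.11).

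The oocytes had been freed of surrounding CC with hyaluronidase. Summed cumulus and granulosa markers ranged from 615 to 4358 CPM among the oocyte pools. Among the 14 markers retained in CC, VCAN had the highest oocyte median (863 CPM), then HAS2 (186 CPM) and PTGS2 (152 CPM). HAS2 was lower in CC (median 50.5 CPM). The marker sum thus rested largely on VCAN and was not specific to CC. Over the 16 oocyte pools INHBA rose with this sum (r = 0.88, permutation p = 2e-05, adjusted p = 8e-05, rho = 0.90, permutation p = 2e-05, adjusted p = 8e-05). INHA did so as well (r = 0.82, permutation p = 9e-05, adjusted p = 0.00018, rho = 0.74, permutation p = 0.00166, adjusted p = 0.00332). Without the 2 pools farthest from the median of the marker sum r was 0.81 for INHBA and 0.75 for INHA, and over deviations from the classification means it was 0.91 and 0.86. FST (r = 0.43, permutation p = 0.0958, adjusted p = 0.128, rho = 0.44, permutation p = 0.0856, adjusted p = 0.114) and FSTL3 (r = 0.22, permutation p = 0.414, adjusted p = 0.414, rho = 0.19, permutation p = 0.482, adjusted p = 0.482) did not reach an adjusted p under 0.05. For FST, r was 0.23 without the 2 farthest pools and 0.67 without spontaneous replicate 4. For FSTL3 it was 0.07 without the 2 farthest pools. These are 4 relations in all. The marker sums of the small, large and spontaneous oocyte pools ranged from 795 to 4358, from 615 to 3837 and from 700 to 2986 CPM, and their part in the levels of INHA and INHBA was not tested further.

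**Figure D5:**
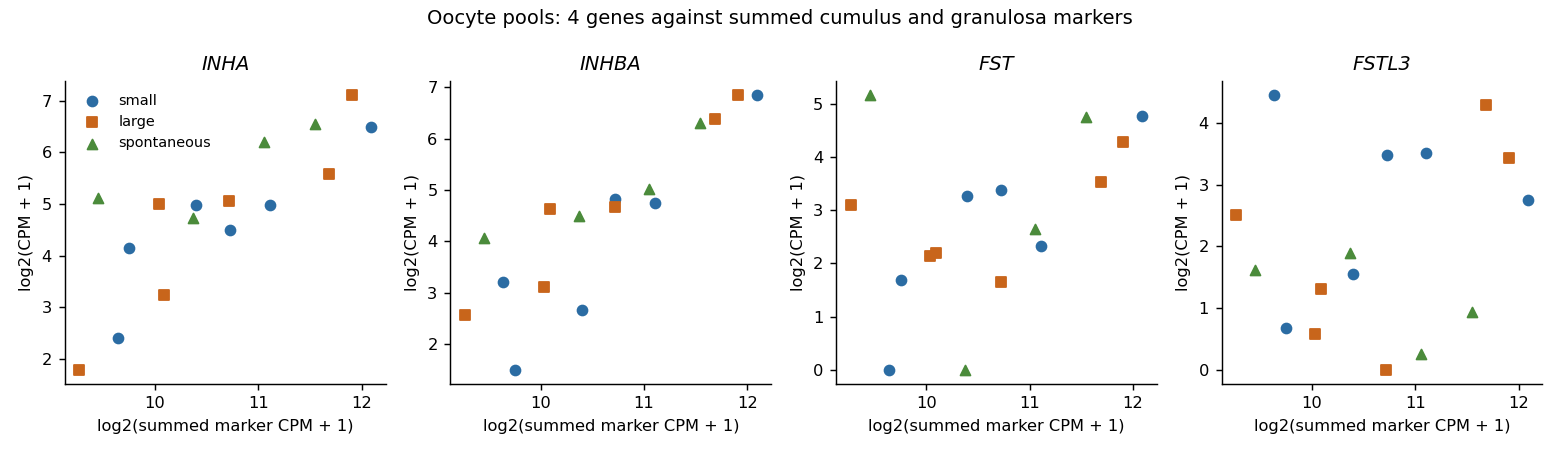
Log2(CPM + 1) of INHA, INHBA, FST and FSTL3 against log2 of the summed CPM + 1 of cumulus and granulosa markers (both axes on a log2 scale) in the 16 oocyte pools. INHA and INHBA rise along the axis (r = 0.82 and 0.88), whereas FST and FSTL3 scatter (r = 0.43 and 0.22).

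In the oocyte pools 24 of the 39 pathway genes were retained and 0 met the threshold in any comparison by limma. The backgrounds were 0.655% (small and large), 0.774% (small and spontaneous) and 0.943% (large and spontaneous) of all retained transcripts. BAMBI met the threshold from small to spontaneous follicles when small replicate 2 was left out (2.23).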

How the data were processed

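Pooled RNA (4 oocytes, or the CC of 4 complexes) was amplified and sequenced by the authors as single-end reads. They trimmed the reads with fqtrim, aligned them to UMD3.1 with Hisat2 and used FeatureCounts on the Ensembl annotation. Deposited values are CPM, scaled by the authors to the reads on genes of each library, in separate tables for oocytes and CC. Amplification can widen the spread of low transcripts, and CPM move with the share taken by abundant transcripts.

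All columns were matched to pools by name, and 0 were unmatched. Whole reads were recovered from 100% of the CPM values (tolerance 0.01 read). The 3 reads behind a count of 0 set the limit on absent transcripts. Transcripts reaching 5 CPM in 5 CC or 4 oocyte pools (9712 and 10076 retained) were tested with limma 3.58.1 (R 4.3.3) on log2(CPM + 1), fitting a trend of variance on abundance, two-sided, between pairs of classifications without covariates. This scale understates the change of low transcripts. The threshold was the study's nominal p of 0.01, applied here to limma alone, beside Benjamini-Hochberg adjusted p-values over all retained transcripts. The study required that p in both edgeR and DESeq2, and gave an empirical false discovery rate from reshuffled samples, which was not computed here. Exact permutation tests compared mean CPM. Correlations used 100000 resamples. The study tested counts with edgeR and DESeq2, which were run here on recovered reads (edgeR 4.0.16, DESeq2 1.42.0) as alternatives. Other alternatives were a pseudocount of 0.1, no filter, median-of-ratios scaling, a fit over all classifications, a block for the replicate number, CPM without mitochondrially encoded genes, and each pool left out. Passing both count tests, a rule like the study's, and the alternatives for correlations between pairs of genes, were added after seeing the data. Of the tests, only limma was tried on simulated counts, with the same setting of spread between pools for every transcript. Those counts did not imitate the outlying pools of these data. Libraries of a group differed by more than sampling noise (chi-square over its degrees of freedom at least 14.9 in CC and 68.4 in oocytes).

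The genes and the lists of pathway genes and markers were chosen with earlier results of these data known. Named were the 7 genes, pathway genes past the threshold, up to 4 pathway genes per group with the highest mean CPM in CC, and the 3 symbols with the highest r to each gene. Single markers were named after their values were seen. Marker lists covered cumulus and granulosa cells, oocytes, theca and stroma, white blood cells (34.5 to 227 CPM in CC, 133 to 266 in oocytes), red blood cells (at most 4.18 and 0.568) and endothelium (7.38 to 70.8 and 97.6 to 172). Sequences and coordinates were not used here. Figures used matplotlib 3.10.9 (Python 3.11.15).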

Additional observations from a re-analysis of the deposited data

Results flagged for a closer look

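In 12 of 40 sets of pools of the same classification and cell type, the highest pool stood apart by Dixon's criterion (95% level). By chance that criterion flags about 1 in 20 independent sets of normally distributed values. These sets held untransformed CPM, and the same pools recurred across genes. The count of 12 therefore cannot be read against that rate. Among CC pools these were INHA in large replicate 2 (3512 CPM), INHBA in small replicate 4 (1037 CPM) and large replicate 6 (1022 CPM), INHBB in spontaneous replicate 1 (30.1 CPM), AMH in large replicate 2 (38.1 CPM) and AMHR2 in small replicate 4 (8.81 CPM, 29 reads). Large replicate 2 thus stood apart for INHA and AMH, and small replicate 4 for INHBA and AMHR2.

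Among oocyte pools, small replicate 3 stood apart for INHA (88.7 CPM), INHBA (114 CPM), FST (26.4 CPM) and AMH (11.2 CPM). It is the pool that the study left out in a second analysis, and its summed cumulus and granulosa markers, 4358 CPM, were the highest of all oocyte pools. Large oocyte replicate 6 stood apart for INHA (137.5 CPM), with the second highest marker sum (3837 CPM). AMHR2 had reads in large oocyte replicate 5 only (1.66 CPM, 18 reads).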

How the results depend on the processing

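With 4 to 6 pools in a group and a spread as large as many differences, calls near the threshold turned on single pools. The count of genes past the threshold in CC from large to spontaneous follicles went from 1 to 0 with no filter, median-of-ratios scaling, no mitochondrially encoded genes, edgeR's quasi-likelihood test, DESeq2 or both count tests together. The same count for pathway genes went from 1 to 0 with median-of-ratios scaling, edgeR's quasi-likelihood test or both count tests, and to 2 with DESeq2 (GATA4, -0.47). From small to spontaneous follicles the 2 pathway genes became 1 with edgeR's quasi-likelihood test or both count tests. From small to large follicles the 0 pathway genes became 1 with median-of-ratios scaling, all classifications in one fit, the replicate block or DESeq2.

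The replicate numbers of the labels were not shown to pair the pools: deviations of same-numbered pools correlated between -0.19 and 0.22 in CC and between -0.13 and 0.14 in oocytes. With the replicate block the CC count from large to spontaneous follicles was 2 (INHA, 0.86, and FST, 0.63) and the oocyte count was 1 (INHA, 1.75).

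Leaving out a pool at a time, the count of the 7 genes past the threshold in CC was 0 to 1 from small to large, 0 to 2 from small to spontaneous and 0 to 2 from large to spontaneous follicles. Pathway counts were 0 to 1, 2 to 3 and 0 to 2 in CC, and 0 to 1 in oocytes from small to spontaneous follicles. Log2 fold changes that turned sign were in CC those of FST (-0.00896 to 0.28) and AMH (-0.25 to 0.24) from small to large, INHBB (-0.012 to 0.48) from small to spontaneous and INHBA (-0.047 to 0.36) from large to spontaneous follicles. In oocytes they were INHA (-0.46 to 0.61) and FST (-0.27 to 0.68) from small to large, FST (-0.11 to 1.61) from small to spontaneous, and INHBA (-0.18 to 0.70) and FST (-0.35 to 1.37) from large to spontaneous follicles. Log2 ratios from small to spontaneous CC turned sign for INHBA to INHA (-0.34 to 0.25) and FST to INHBA (-0.14 to 0.30), and INHBA to INHA from large to spontaneous ranged from -1.07 to -0.43. The r of FST with the markers ranged from 0.33 to 0.67. In oocytes FST from small to large follicles was -0.14 with edgeR and -0.15 with DESeq2, INHBA from large to spontaneous -0.27 and -0.26, and FST from large to spontaneous -0.33 with a pseudocount of 0.1. The causes were not tested. Of 240 log2 fold changes under the other alternatives, of the 6 genes tested in CC and the 4 tested in oocytes, 228 kept direction and side of the threshold.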
